A study of Mus musculus with 8 samples.

Results

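Antibody genes were followed through 8 mouse pancreatic tumour libraries, where they formed the members of a set chosen by gene symbol. The set held 90 of the 19129 genes tested: 37 heavy chain V genes (Ighv), 38 kappa V genes (Igkv), 2 lambda V genes (Iglv), 7 heavy chain constant genes, the kappa constant gene Igkc, 3 lambda constant genes (Iglc1, Iglc2 and Iglc3), Jchain and Mzb1. The symbol pattern also matched 1 gene that encodes no antibody, the helicase gene Ighmbp2, which was left out of every sum. The tumours were isografts, grown from transplanted mouse tumour material and taken fresh from 8 mice. Libraries of 4 mice are labelled MEKi, for trametinib given for 7 days, and libraries of 4 mice are labelled control. Trametinib inhibits MEK1 and MEK2, the kinases that activate ERK. The sources used here do not state strain, sex, age, tumour line, dose or what the control mice received. Each library is called below by its label and replicate number, as in MEKi 3.

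An antibody is built of heavy and light chains. Each chain joins a variable part to a constant part. The variable part is encoded by 1 of many V genes and a short J segment, and in heavy chains also by a short D segment. In a B cell, DNA recombination picks 1 V gene for the heavy chain and 1 for the light chain, so that all descendants of the cell transcribe the same pair. The heavy chain constant gene sets the isotype: Ighm (IgM) and Ighd (IgD) are used first, and class switching replaces them by an Ighg gene (IgG) or Igha (IgA). Plasma cells, the antibody-secreting end stage, hold far more antibody mRNA than resting B cells, and they also transcribe Jchain, which joins IgM and IgA units into polymers, and Mzb1, which encodes an endoplasmic reticulum protein that helps antibody assembly. Reads counted per gene carry no V(D)J junction, so clones were not seen as such, and heavy and light chains were not paired.

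Reads in tested genes ranged from 20182531 to 38569550 in the MEKi libraries and from 20090101 to 31797960 in the control libraries. Reads of the set ranged from 2356 to 36752 in the MEKi libraries and from 2034 to 16346 in the control libraries. Every gene in the table had at least 5 reads in at least 4 of the 8 libraries, so a V gene used in fewer tumours has no row. GENCODE annotates 113 Ighv, 100 Igkv and 3 Iglv genes that are not pseudogenes, and 37, 38 and 2 of them were analysed here. Genes that ERK drives did not follow the labels. Dusp6, an ERK phosphatase gene switched on by ERK activity, had variance-stabilised log2 values of 8.88, 12.12, 12.20 and 11.01 in MEKi 1 to 4, against 12.19, 12.14, 9.31 and 9.24 in control 1 to 4. Spry4, an ERK-induced Sprouty gene, varied in the same way, with 7.25 to 9.88 in the MEKi libraries and 7.20 to 9.88 in the control libraries. The groups below are therefore named by their labels alone.

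No antibody gene passed the test between the labels. By limma, 0 of the 90 members passed an adjusted p of 0.05, where 0.00523% of all genes tested did. At an unadjusted p under 0.05 there was 1 member, the kappa V gene Igkv4-91, against 1.77% of all genes, and limma voom on recovered reads called 0 members with 3 at an unadjusted p under 0.05. The limma count changed most when MEKi 4, the library with the lowest antibody level, was left out. Without it, 14 of the 90 members (15.6%) had an unadjusted p under 0.05 by limma, all 14 with higher means under the MEKi label, beside 1.66% of all genes. Igkc, Jchain, Ighg1 and Ighg2c were among the 14, and 0 passed the adjusted threshold. MEKi 4 was singled out by the level of these same members, and leaving it out raises the MEKi mean of most of them. Members also share the total antibody level of a library. The 14 are therefore not independent, and their count is no test of a difference between the labels. Without MEKi 3, the library with the highest level, 3 members (3.33%) had an unadjusted p under 0.05 by limma. All 3 had lower means under the MEKi label, beside 1.70% of all genes in either direction. The groups did not overlap for 0 of the 90 members. Over all genes, 0.565% had every MEKi value above the controls and 0.701% had every MEKi value below them. Among the members, 62 had a higher mean under the MEKi label (68.9%) and 28 a lower mean, with a median log2 difference of 0.17, beside 51.5% higher and a median of 0.01 over all genes. The members varied more than most genes: the median SD of the log2 values over the 8 libraries was 0.75 for the members and 0.21 for all genes tested.

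Antibody transcripts differed between tumours by more than an order of magnitude, with the extremes both under the MEKi label. Their summed level was 484, 532, 1228 and 61.1 RPM (reads per 1000000 reads in tested genes) in MEKi 1 to 4, against 88.4, 514, 225 and 179.9 RPM in control 1 to 4. MEKi 3 was the highest and MEKi 4 the lowest library, 20.1-fold apart, while the control libraries spanned 5.81-fold. The groups overlapped. On the log2 scale the mean level was 8.54 ± 1.84 (SD, n = 4) under the MEKi label and 7.69 ± 1.05 (SD, n = 4) under the control label, a difference of 0.85. That difference was 0.27 without MEKi 3, 1.72 without MEKi 4, 0.44 without control 1 and 1.28 without control 2. In bulk tissue, fewer antibody-producing cells and less antibody RNA per cell cannot be told apart.

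**Figure D1:**
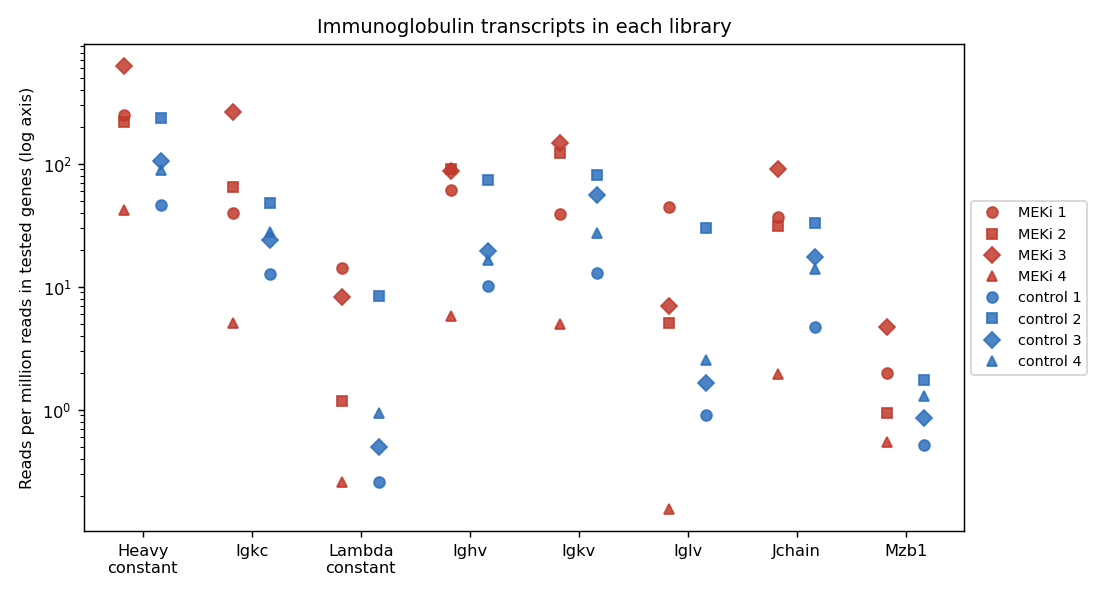
Level in RPM (log axis) for the summed heavy constant, lambda constant, Ighv, Igkv and Iglv genes and for Igkc, Jchain and Mzb1, with 1 point per library (circle, square, diamond and triangle for replicates 1 to 4; red MEKi, blue control). MEKi 3 has the highest Igkc level, 262 RPM, and MEKi 4 the lowest, 5.11 RPM, and the 4 control libraries lie between them.

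The light chain constant gene Igkc and Jchain gave the same extremes, and Mzb1 shared the highest library. Igkc, on chromosome 6 (GRCm38, 70726435 to 70726966), had 39.8, 64.2, 262 and 5.11 RPM in MEKi 1 to 4, against 12.7, 48.4, 24.1 and 28.0 RPM in control 1 to 4. Jchain, on chromosome 5 (88519809 to 88527891), had 36.7, 31.2, 90.2 and 1.97 RPM in MEKi 1 to 4, against 4.69, 33.3, 17.4 and 14.0 RPM in control 1 to 4. For both genes MEKi 3 was highest, MEKi 4 was lowest and the groups overlapped. Mzb1 was read less deeply, with 54, 19, 142 and 21 reads in MEKi 1 to 4 and 12, 56, 19 and 26 reads in control 1 to 4. By RPM, MEKi 3 was again highest for Mzb1 (4.75), while MEKi 4 (0.54) and control 1 (0.52) were lowest. Of the 90 members, 37 had their highest level in MEKi 3, 15 in MEKi 1, 15 in MEKi 2 and 18 in control 2.

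On the variance-stabilised scale, the log2 difference was 0.69 for Igkc (SE 0.89, 95% interval -1.31 to 2.69) and 0.56 for Jchain (SE 0.85, interval -1.35 to 2.47). It was 0.25 for Mzb1 (SE 0.30, interval -0.42 to 0.93). Without MEKi 3 the signs turned, to -0.11 for Igkc, -0.026 for Jchain and -0.031 for Mzb1, so MEKi 3 decided the direction of each.

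**Figure D2:**
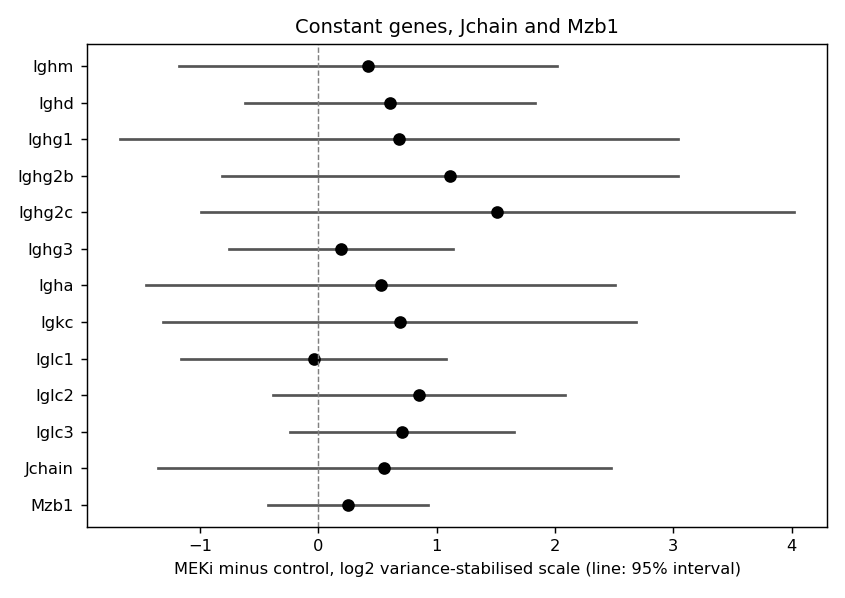
Difference between MEKi and control means for each constant gene, Jchain and Mzb1 on the log2 variance-stabilised scale (points, limma estimates; lines, 95% intervals; n = 4 libraries each). All 13 intervals include 0, and the widest is that of Ighg2c, from -0.99 to 4.02.

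The heavy chain constant genes lie in a row on chromosome 12, and IgM led in 7 of the 8 libraries. Ighm (113418558 to 113422730) took 75.4%, 60.4%, 19.5% and 56.4% of heavy constant reads in MEKi 1 to 4, against 50.6%, 74.7%, 75.8% and 52.1% in control 1 to 4. MEKi 3 stood below the other libraries, with an exact (Clopper-Pearson) 95% interval of 18.9% to 20.1%. Such intervals cover counting error only. The mean share was 52.9% ± 23.7 (SD, n = 4) under the MEKi label and 63.3% ± 13.8 (SD, n = 4) under the control label. The difference of -10.4 percentage points was 0.77 without MEKi 3. Ighd, which is co-expressed with Ighm in naive B cells, held at most 2.69% of heavy constant reads in a MEKi library and 2.92% in a control library.

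Each tumour had its own mixture of switched isotypes. Ighg2c, the IgG2c gene, took 0.63%, 21.01%, 21.8% and 1.35% of heavy constant reads in MEKi 1 to 4, against 4.24%, 1.65%, 2.29% and 4.401% in control 1 to 4. MEKi 2 and MEKi 3 were high, and the other MEKi libraries lay below all control libraries. Ighg2b, the IgG2b gene, took 1.85%, 0.43%, 10.02% and 31.4% in MEKi 1 to 4, against 1.22%, 4.36%, 3.95% and 1.56% in control 1 to 4, and MEKi 4 was highest. Ighg1, the IgG1 gene, took 13.8%, 9.14%, 15.4% and 0.43% in MEKi 1 to 4, against 24.9%, 10.8%, 7.13% and 2.56% in control 1 to 4. Here control 1 was highest and MEKi 4, the library richest in Ighg2b, was lowest. Igha, the IgA gene of mucosal plasma cells, took 6.70%, 7.89%, 29.7% and 8.16% in MEKi 1 to 4, against 13.8%, 6.38%, 10.4% and 35.9% in control 1 to 4. A single library under each label, MEKi 3 and control 4, was rich in Igha. Ighg3, the IgG3 gene, was the scarcest IgG gene over all libraries, with 337 reads.

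**Figure D3:**
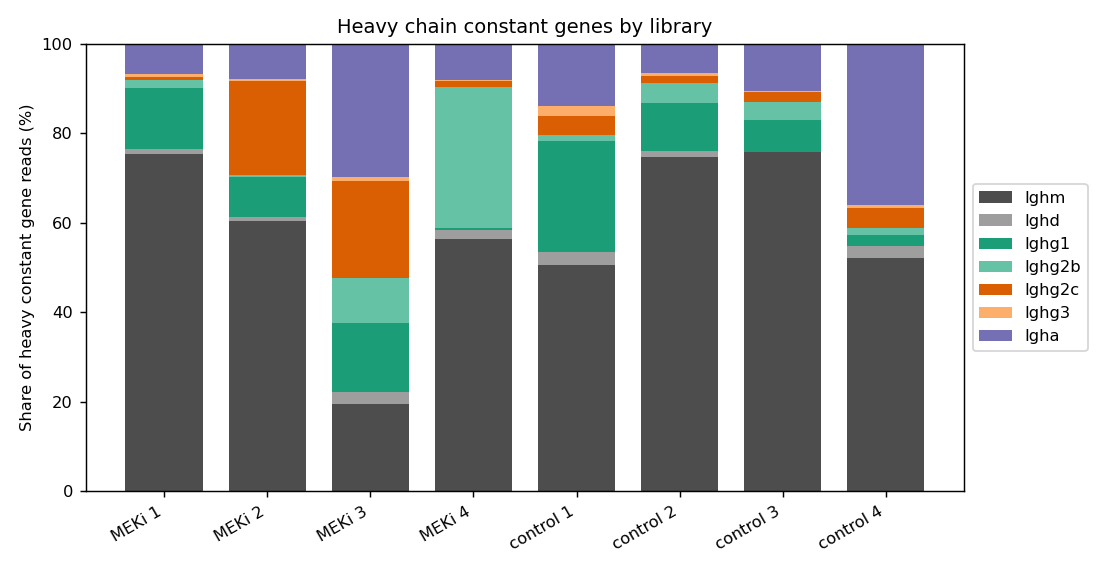
Share of heavy constant gene reads (%) taken by each heavy constant gene in each library, 1 stacked bar per library. Ighm (dark grey) takes from 50.6% to 75.8% of 7 bars and 19.5% of the MEKi 3 bar, and Ighg2b takes 31.4% of the MEKi 4 bar.

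Because longer genes collect more reads, the order of isotypes was also taken per kilobase of annotated exon. Per kilobase, Ighm led in MEKi 1, MEKi 2, MEKi 4 and the 4 control libraries. In MEKi 3 Ighg2c came first with 33.3%, before Igha with 22.5% and Ighm with 20.9%, while by reads Igha came first. That order depends on annotated exon length, which was 1326 bases for Ighg2c, 2668 for Igha and 1886 for Ighm. The similar gene Ighg2b had 2678 bases of annotated exon, beside coding sequences of 1007 bases for Ighg2b and 1211 for Ighg2c. Whether these lengths match the transcripts was not tested, so the first place of Ighg2c is uncertain. Switched isotypes, all Ighg genes and Igha together, held 23.6%, 38.8%, 77.8% and 41.5% of heavy constant reads in MEKi 1 to 4, against 46.5%, 23.9%, 24.1% and 45.2% in control 1 to 4. MEKi 3 was highest and the groups overlapped.

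The tests of the isotype genes gave wide intervals. The log2 difference was 1.51 for Ighg2c (8.65 ± 2.79 under the MEKi label against 7.13 ± 0.28 under the control label, SD, n = 4; SE 1.12, interval -0.99 to 4.02). It was 1.11 for Ighg2b (interval -0.81 to 3.04), 0.68 for Ighg1 (interval -1.67 to 3.04) and 0.19 for Ighg3 (interval -0.75 to 1.14). It was 0.42 for Ighm (interval -1.18 to 2.02), 0.61 for Ighd (interval -0.62 to 1.84) and 0.53 for Igha (interval -1.46 to 2.51). All 7 means were higher under the MEKi label, and 0 of 7 passed the test, with 0 at an unadjusted p under 0.05. On recovered reads by limma voom, the sign turned for Ighg1 (-0.27) and Ighg3 (-0.36). Without MEKi 3 it turned for Igha (-0.42), Ighg1 (-0.070) and Ighg3 (-0.23), and without control 1 it turned for Ighm (-0.050). Without MEKi 3 the difference was 0.49 for Ighg2c, 0.32 for Ighg2b and 0.038 for Ighd. Reads shared between the similar genes Ighg2b and Ighg2c, 85.3% identical in coding sequence, could have been split by the counting.

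Most light chain constant reads were kappa, the usual state in the mouse, and 2 tumours had more lambda than the others. Lambda constant genes held 26.2%, 1.82%, 3.06% and 4.83% of light chain constant reads in MEKi 1 to 4, against 2.01%, 14.7%, 2.01% and 3.27% in control 1 to 4. MEKi 1 and control 2 stood above the other 6 libraries, 1 under each label. The exact 95% interval was 24.01% to 28.6% in MEKi 1 and 13.1% to 16.5% in control 2. The V genes gave the same libraries, since Iglv1 and Iglv2 held 53.0% of light chain V reads in MEKi 1 and 27.0% in control 2, and at most 8.53% elsewhere. These V shares count 2 of 3 annotated Iglv genes but 38 of 100 Igkv genes, so missing kappa genes may raise them. In MEKi 1 there were 3.13 lambda V reads per lambda constant read and 0.99 kappa V reads per Igkc read. The mean lambda constant share was 8.99% ± 11.6 under the MEKi label and 5.51% ± 6.18 under the control label (SD, n = 4 each). The difference of 3.48 percentage points was -2.27 without MEKi 1 and 6.56 without control 2.

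The lambda constant genes used by the lambda-rich libraries differed. In MEKi 1, Iglc2 had 226 reads, Iglc3 had 119 and Iglc1 had 39, so that Iglc1 held 10.2% of lambda constant reads. In control 2, Iglc1 led with 179 reads, before Iglc2 with 66 and Iglc3 with 21, and held 67.3%. Iglv1 was the main lambda V gene in both libraries, with 1049 reads beside 152 of Iglv2 in MEKi 1 and 863 reads beside 96 of Iglv2 in control 2. Iglc2 and Iglc3 are 96.5% identical and Iglv1 and Iglv2 are 96.3% identical in coding sequence, so the split within each pair is uncertain. The log2 difference was -0.04 for Iglc1 (interval -1.16 to 1.08), 0.85 for Iglc2 (interval -0.38 to 2.09) and 0.71 for Iglc3 (interval -0.24 to 1.66), and 0 of the 3 passed the test. For Iglc1 the sign depends on single libraries, with differences from -0.35 to 0.44 when each is left out. Without MEKi 1, the lambda-rich library, the difference was 0.38 for Iglc2 and 0.31 for Iglc3.

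V gene use differed between tumours: 6 Ighv genes and 6 Igkv genes took turns as the most read of a library. The leading V genes are shown as the last 300 coding bases (all 294 for Ighv1-82) of the GENCODE transcript on GRCm38, 5′ to 3′, so that a reader can see how far each can be told from its closest annotated relative. The relative is the closest of the same locus among annotated V genes that are not pseudogenes. Capitals mark the bases that differ from that relative in a global alignment, and ends that the relative lacks are left in lower case. The heavy chain genes lie on chromosome 12, minus strand, and are compared with Ighv1-22, Ighv1-80, Ighv11-2 and Ighv7-4 in this order.
Ighv1-26: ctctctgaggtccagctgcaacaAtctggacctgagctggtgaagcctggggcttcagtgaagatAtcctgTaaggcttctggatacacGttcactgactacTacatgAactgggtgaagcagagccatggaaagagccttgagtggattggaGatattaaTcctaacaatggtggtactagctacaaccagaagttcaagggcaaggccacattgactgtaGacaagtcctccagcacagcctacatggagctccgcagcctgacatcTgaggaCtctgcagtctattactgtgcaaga
Ighv1-82: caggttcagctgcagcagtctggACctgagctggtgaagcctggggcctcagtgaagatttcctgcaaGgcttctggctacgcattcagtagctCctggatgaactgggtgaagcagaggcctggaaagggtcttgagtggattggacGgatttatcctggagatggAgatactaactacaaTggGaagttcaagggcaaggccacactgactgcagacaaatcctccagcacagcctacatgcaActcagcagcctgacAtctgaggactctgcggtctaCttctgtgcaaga
Ighv4-1: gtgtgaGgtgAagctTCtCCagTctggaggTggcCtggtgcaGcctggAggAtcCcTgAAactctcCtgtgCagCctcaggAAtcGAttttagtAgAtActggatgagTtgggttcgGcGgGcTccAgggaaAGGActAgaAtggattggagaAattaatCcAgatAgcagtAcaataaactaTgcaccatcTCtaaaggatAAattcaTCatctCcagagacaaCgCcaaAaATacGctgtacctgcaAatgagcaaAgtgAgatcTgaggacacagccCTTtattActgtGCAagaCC
Ighv7-3: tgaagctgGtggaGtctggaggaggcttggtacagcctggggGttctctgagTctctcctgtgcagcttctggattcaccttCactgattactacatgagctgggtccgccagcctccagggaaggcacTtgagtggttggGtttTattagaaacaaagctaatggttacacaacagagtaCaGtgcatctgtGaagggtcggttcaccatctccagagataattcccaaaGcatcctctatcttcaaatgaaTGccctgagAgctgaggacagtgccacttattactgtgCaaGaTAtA

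The light chain genes lie on chromosome 6 (Igkv4-50 and Igkv6-23 on the minus strand, Igkv1-110 on the plus strand) and chromosome 16 (Iglv1, minus strand), and are compared with Igkv4-59, Igkv6-13, Igkv1-117 and Iglv2 in this order.
Igkv4-50: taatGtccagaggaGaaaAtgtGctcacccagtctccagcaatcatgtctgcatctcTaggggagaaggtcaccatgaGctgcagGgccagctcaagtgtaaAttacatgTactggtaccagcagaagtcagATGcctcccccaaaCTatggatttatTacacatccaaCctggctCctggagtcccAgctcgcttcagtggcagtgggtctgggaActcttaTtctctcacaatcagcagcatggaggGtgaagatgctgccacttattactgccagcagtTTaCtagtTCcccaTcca
Igkv6-23: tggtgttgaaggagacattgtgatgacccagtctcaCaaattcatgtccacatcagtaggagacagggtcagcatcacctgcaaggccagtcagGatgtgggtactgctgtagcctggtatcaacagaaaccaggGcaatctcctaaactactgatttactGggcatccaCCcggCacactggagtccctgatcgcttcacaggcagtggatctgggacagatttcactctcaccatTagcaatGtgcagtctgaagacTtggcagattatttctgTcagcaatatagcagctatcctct
Igkv1-110: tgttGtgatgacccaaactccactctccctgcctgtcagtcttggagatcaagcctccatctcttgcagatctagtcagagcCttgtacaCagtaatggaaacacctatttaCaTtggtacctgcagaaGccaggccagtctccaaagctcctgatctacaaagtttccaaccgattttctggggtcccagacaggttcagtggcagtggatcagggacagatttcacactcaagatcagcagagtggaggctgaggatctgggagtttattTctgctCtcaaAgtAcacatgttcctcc
Iglv1: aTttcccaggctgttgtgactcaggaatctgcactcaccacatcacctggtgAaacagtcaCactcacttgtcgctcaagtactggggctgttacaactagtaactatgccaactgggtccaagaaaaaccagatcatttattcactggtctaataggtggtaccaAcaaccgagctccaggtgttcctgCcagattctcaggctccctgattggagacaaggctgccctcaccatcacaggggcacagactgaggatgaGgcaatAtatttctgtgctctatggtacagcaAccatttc

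Over the whole coding sequence, identity to the closest relative was 96.6% for Ighv1-26, 96.3% for Ighv1-82, 76.2% for Ighv4-1 and 92.5% for Ighv7-3. It was 90.9% for Igkv4-50, 96.2% for Igkv6-23, 97.2% for Igkv1-110 and 96.3% for Iglv1. Over the 77 V genes the median was 95.4%, and for 43 of them the closest relative has no row here. Few capitals in a sequence mean that most stretches of a read match both genes. As far as these relatives go, reads of such genes are less certain than those of Ighv4-1. Pseudogenes (70 annotated for Ighv and 60 for Igkv) were not compared and may be closer.

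In the heavy chain, the leading V gene took a larger share of V reads in 3 of the 4 MEKi libraries than in any control library. The leader was Ighv1-82 in MEKi 1 (43.5% of Ighv reads), Ighv1-26 in MEKi 2 (41.3%) and in MEKi 3 (21.5%), and Ighv4-1 in MEKi 4 (63.8%). In the control libraries it was Ighv1-42 in control 1 (12.0%), Ighv7-3 in control 2 (24.4%), Ighv1-9 in control 3 (15.4%) and Ighv1-26 in control 4 (24.7%). MEKi 3 lay within the control range. The top share averaged 42.5% ± 17.3 under the MEKi label and 19.1% ± 6.44 under the control label (SD, n = 4 each). As the share of a gene chosen for being the most read, it is given without a test.

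The effective number of V genes, the number of equally used genes that would give the same evenness of reads (exponential of the Shannon entropy), shows the same pattern. For Ighv it was 10.6, 8.504, 17.005 and 4.05 in MEKi 1 to 4, against 18.2, 17.8, 18.4 and 15.99 in control 1 to 4. MEKi 1, MEKi 2 and MEKi 4 lay below all control libraries, and MEKi 3 lay above control 4. The mean was 10.1 ± 5.39 under the MEKi label and 17.6 ± 1.09 under the control label (SD, n = 4 each). Depth differed among the libraries, with 1660, 1818, 2589 and 224 Ighv reads in MEKi 1 to 4, against 234, 2352, 434 and 332 Ighv reads in control 1 to 4. At a common depth of 224 reads the expected number of Ighv genes detected was 27.8, 22.1, 29.1 and 18 in MEKi 1 to 4, against 23.9, 30.6, 28.0 and 26.6 in control 1 to 4. By that measure 2 MEKi libraries, MEKi 2 and MEKi 4, lay below all control libraries.

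Kappa V genes did not show the Ighv pattern, in which MEKi 3 overlapped the control libraries. Their effective number was 22.3, 12.9, 22.7 and 4.33 in MEKi 1 to 4, against 19.8, 18.6, 15.7 and 19.7 in control 1 to 4. MEKi 1 and MEKi 3 lay above and MEKi 2 and MEKi 4 below all control libraries. The leader was Igkv1-135 in MEKi 1 (12.7% of Igkv reads), Igkv4-50 in MEKi 2 (22.7%), Igkv1-110 in MEKi 3 (12.8%) and Igkv6-23 in MEKi 4 (64.8%). It was Igkv1-117 in control 1 (14.7%), Igkv4-68 in control 2 (15.98%) and Igkv1-110 in control 3 (29.98%), and in control 4 Igkv1-110 and Igkv1-135 had 65 reads each (11.9%). In MEKi 1 the reads of the analysed kappa genes were spread widely. The lambda V genes of that library took the 53.0% of analysed light chain V reads given above.

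**Figure D4:**
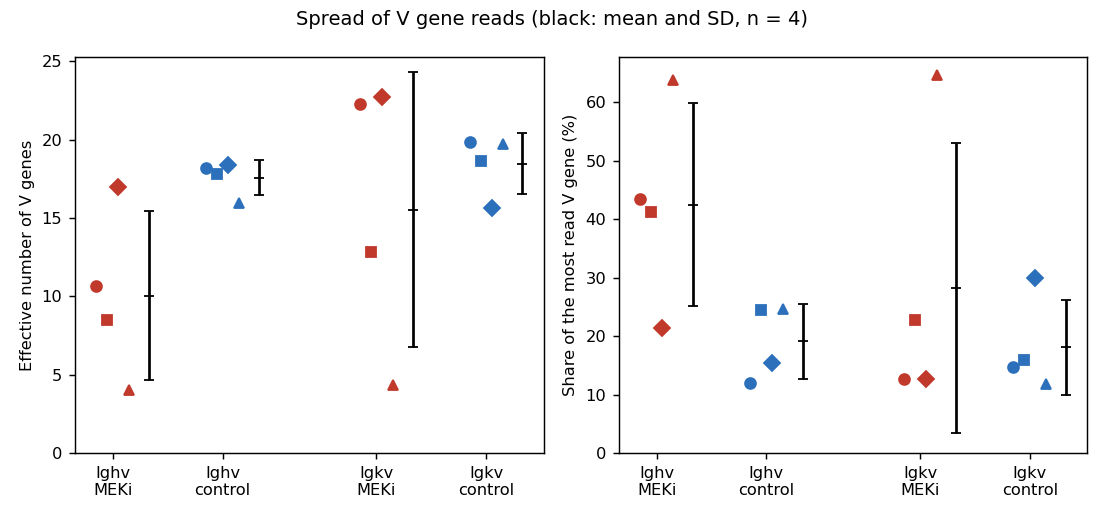
Effective number of V genes (left) and share of the most read V gene in % (right) for Ighv and Igkv, with 1 point per library (circle, square, diamond and triangle for replicates 1 to 4; red MEKi, blue control) and black bars for mean and SD (n = 4). MEKi 4 has the lowest effective number in both loci, 4.05 and 4.33, and the 4 control libraries lie between 15.99 and 18.4 for Ighv.

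Among the V genes analysed, MEKi 4 was the most concentrated library in both loci, although it had few antibody reads. Ighv4-1 (chromosome 12, 113948282 to 113948796) had 15, 2, 93 and 143 reads in MEKi 1 to 4, against 0, 60, 5 and 11 reads in control 1 to 4. The kappa gene Igkv6-23 (chromosome 6, 70260409 to 70260955) had 16, 6, 46 and 125 reads in MEKi 1 to 4, against 0, 18, 45 and 3 reads in control 1 to 4. The exact 95% interval of the share in MEKi 4 was 57.2% to 70.1% for Ighv4-1 and 57.6% to 71.5% for Igkv6-23. These intervals cover counting error among the analysed genes only. Heavy V reads per heavy constant read were lowest in MEKi 4, at 0.138, so reads of Ighv genes without a row may lower the share of Ighv4-1. Kappa V reads per Igkc read, at 0.98, were not the lowest. In control 1 the 0 reads (limit 3 reads of the total) allow a share of up to 1.28% of Ighv reads for Ighv4-1 and 1.003% of Igkv reads for Igkv6-23. The same library had the highest Ighg2b share of all 8 libraries, so a heavy V gene, a kappa V gene and an IgG gene each stood out there. Whether they come from the same cells was not tested, since the counts do not join chains.

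MEKi 2 was led by Ighv1-26 and by a group of kappa genes. Ighv1-26 (chromosome 12, 114788372 to 114788805) had 164, 751, 556 and 13 reads in MEKi 1 to 4, against 3, 79, 18 and 82 reads in control 1 to 4. It was the heavy chain V gene with the most reads over all libraries, 1666, and reached over 10% of Ighv reads in 3 of them. Its log2 difference was 1.60 (SE 0.79, interval -0.18 to 3.37, Benjamini-Hochberg adjusted p = 0.9996 by limma). Igkv4-50 had 28, 561, 26 and 0 reads in MEKi 1 to 4, against 0, 11, 2 and 8 reads in control 1 to 4. MEKi 2 held 91.0% of its level summed over the 8 libraries. In the same library Igkv5-43 had 436 reads, Igkv4-53 had 238 and Igkv4-59 had 233, and Ighv1-58 had 274. Igkv4-50 is 87.0% identical to Igkv4-53 and 90.9% to Igkv4-59, but 62.0% to Igkv5-43. MEKi 2 and MEKi 3, with the most Ighv1-26 reads, were also the libraries rich in Ighg2c. By share of Ighv reads the match did not hold. Ighv1-26 took 24.7% in control 4, above the 21.5% in MEKi 3. Ighg2c took only 4.401% of heavy constant reads in control 4. Whether the same cells carry Ighv1-26 and Ighg2c was not tested.

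In MEKi 1, Ighv1-82 (chromosome 12, 115952538 to 115953005) stood beside the high lambda share. It had 722, 102, 81 and 34 reads in MEKi 1 to 4, against 1, 306, 17 and 2 reads in control 1 to 4. MEKi 1 and control 2, the lambda-rich libraries, had the most reads of Ighv1-82 too. By share of Ighv reads, MEKi 4 (15.2%) ranked above control 2 (13.01%), although its lambda constant share was 4.83%. The match with lambda thus held by reads and not by share. Control 2 was led by Ighv7-3 (chromosome 12, 114153180 to 114153644), which had 54, 209, 9 and 3 reads in MEKi 1 to 4, against 0, 575, 23 and 4 reads in control 1 to 4. The kappa gene Igkv4-68 had 17, 3, 18 and 0 reads in MEKi 1 to 4, against 1, 414, 35 and 2 reads in control 1 to 4, with 80.8% of its summed level in control 2.

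Among the V genes analysed, the tumour richest in antibody reads was not the most concentrated. MEKi 3 had reads in all 37 Ighv and all 38 Igkv genes analysed, but it also had the most V reads, 7224. A V gene used mainly in MEKi 3 may have no row, so concentration in that library may be understated. Kappa V reads per Igkc read were lowest in MEKi 3, at 0.56. Ighv1-26 and Ighv3-6 led there with 556 and 477 reads, and Ighv3-6 had 5, 8 and 3 reads in MEKi 1, 2 and 4, against 18, 165, 4 and 18 reads in control 1 to 4. Its kappa leaders were Igkv1-110 with 566 reads and Igkv10-94 with 406 reads. Igkv1-110 (chromosome 6, 68270485 to 68271267) was the most widely used kappa gene, above 10% of Igkv reads in 4 libraries (MEKi 3 and controls 2, 3 and 4). It had 65, 8, 566 and 13 reads in MEKi 1 to 4, against 5, 321, 370 and 65 reads in control 1 to 4. Igkv5-48 and Igkv10-96 were also among the 6 most read kappa V genes. Igkv5-48 had 65, 165, 361 and 2 reads in MEKi 1 to 4, against 2, 177, 9 and 62 reads in control 1 to 4. Igkv10-96 had 25, 36, 221 and 1 reads in MEKi 1 to 4, against 34, 258, 28 and 33 reads in control 1 to 4.

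**Figure D5:**
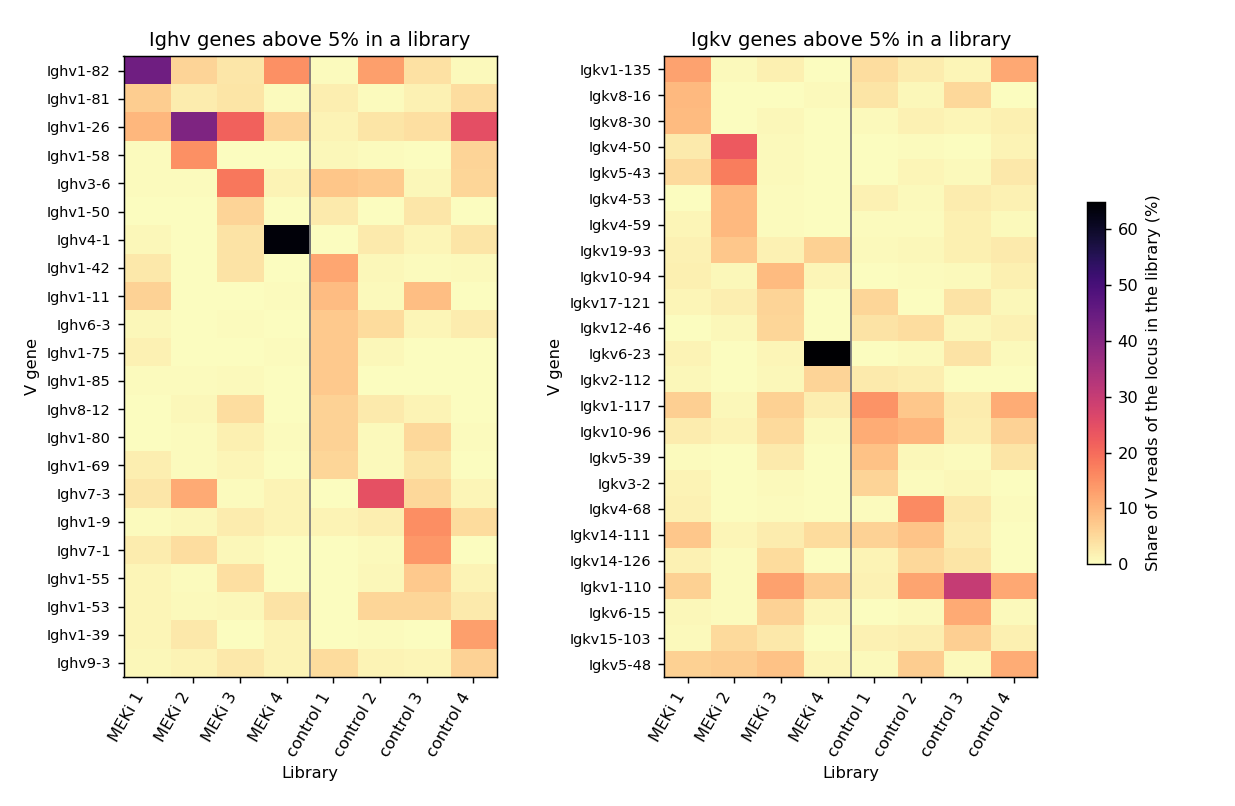
Share of the V reads of a locus (%, colour) taken by each Ighv gene (left) and Igkv gene (right) above 5% in at least 1 library, with libraries in columns (MEKi left of the grey line, control right). The darkest cells are Ighv4-1 at 63.8% and Igkv6-23 at 64.8%, both in MEKi 4, and most rows are dark in 1 column.

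V gene levels were concentrated in single tumours more than the levels of all genes tested. In 17 of 37 Ighv genes and 17 of 38 Igkv genes, 1 library held over 50% of the level summed over the 8 libraries, beside 211 of the 19129 genes tested (1.10%). The largest share in a library had a median of 48.6% for Ighv, 46.8% for Igkv and 17.4% for all genes tested. These levels also carry the differences in total antibody level between the libraries. The genes compared were not matched for read count or for variation in level. The contrast therefore cannot separate uneven V gene use from uneven antibody level. Of the 10 Ighv genes above 10% of Ighv reads in some library, 7 were so in 1 library, and for Igkv the numbers were also 10 and 7.

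The overlap of V gene use between tumours varied widely within and across the labels. The Morisita-Horn overlap of Ighv shares, which is 0 for no shared use and 1 for equal use, had a median of 0.258 over the 6 pairs of MEKi libraries, 0.288 over the 6 pairs of control libraries and 0.255 over the 16 mixed pairs. The highest Ighv overlap, 0.76, joined MEKi 2 and control 4, both with Ighv1-26 as leader, and the lowest, 0.020, joined MEKi 4 and control 1. For Igkv the medians were 0.149 between MEKi libraries, 0.551 between control libraries and 0.344 for mixed pairs. The highest Igkv overlap, 0.724, joined MEKi 3 and control 4, above every pair of control libraries (0.237 to 0.610). MEKi 4 set much of the lower medians: without it the Igkv median was 0.306 between MEKi libraries and 0.538 for mixed pairs. Pairs share libraries, so these values are a description without a test.

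The V genes with the smallest unadjusted p pointed in both directions, and none passed the adjusted threshold. Igkv4-91 had 18, 7, 5 and 0 reads in MEKi 1 to 4, against 6, 26, 53 and 18 reads in control 1 to 4, and differed by -0.66 on the log2 scale (SE 0.29, Benjamini-Hochberg adjusted p = 0.9996 by limma). Ighv6-3 followed with -0.69 (interval -1.44 to 0.06), and Ighv1-81 with 0.79 (interval -0.08 to 1.65). The groups overlapped for each of them. Means were higher under the MEKi label for 24 of 37 Ighv and 24 of 38 Igkv genes.

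The summed B cell genes and the summed plasma cell genes were both highest in MEKi 3, the library richest in antibody reads, by a wide margin for the B cell genes and a narrow one for the plasma cell genes. The 16 B cell genes summed to 85.9, 50.4, 171.6 and 67.6 RPM in MEKi 1 to 4, against 56.6, 89.6, 47.0 and 93.9 RPM in control 1 to 4. MEKi 3 was highest, and the groups overlapped. A higher mean under the MEKi label was found for 13 of the 16, and 0 passed the test, with 0 at an unadjusted p under 0.05. Cr2, the complement receptor gene of follicular B cells and follicular dendritic cells, differed by 0.73 (interval -0.24 to 1.70) and Fcer2a, the low-affinity IgE receptor gene, by 0.39 (interval -0.33 to 1.11). Without MEKi 3 these were 0.28 and 0.09.

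The 17 measured genes of the plasma cell list summed to between 1340 and 1489 RPM in the MEKi libraries and between 1257 and 1388 in the control libraries. The syndecan gene Sdc1, a plasma cell marker that epithelia also express, made up a large part of it, with 618, 617, 524 and 544 RPM in MEKi 1 to 4, against 598, 530.1, 432 and 563 RPM in control 1 to 4. Irf4, a transcription factor gene needed for plasma cells, had 6.15, 5.80, 13 and 3.42 RPM in MEKi 1 to 4, against 3.87, 5.76, 4.95 and 4.58 in control 1 to 4. Irf4, named after its values were seen, thus had the same highest and lowest libraries as Igkc. The list did not share this as a whole. Of the 17 genes, 10 were highest in MEKi 3, 2 each in control 1 and control 3, and 1 each in MEKi 1, MEKi 2 and control 4. Sdc1 was lowest in control 3. Under the MEKi label 8 of the 17 means were higher and 9 lower, and 0 passed the test, with 0 at an unadjusted p under 0.05. Fkbp11, a prolyl isomerase gene of secretory cells, differed by -0.65 (interval -1.30 to 0.01), and Pou2af1, a B cell coactivator gene, by 0.52 (interval -0.13 to 1.16).

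Other cell types varied between the same libraries. Acinar genes, 9 of 9 measured, summed to 318, 236, 11.5 and 2382 RPM in MEKi 1 to 4, against 510.4, 39819, 109582 and 213 RPM in control 1 to 4. MEKi 3, the richest in antibody reads, had the least acinar RNA, and control 2, the control library richest in antibody reads, had much of it. T cell genes, 8 of 8 measured, summed to 61.5 to 195 RPM under the MEKi label and 72.7 to 263 under the control label. The 6 tumour epithelium genes summed to between 4767 and 6875 in the MEKi libraries and between 4591 and 6609 in the control libraries, and the 6 macrophage genes summed to between 640 and 838 in the MEKi libraries and between 618 and 1071 in the control libraries. No gene of the T cell, acinar, macrophage or epithelium lists was at 0 in any library. The part of these other cell types in the antibody levels was not tested.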

How the data were processed

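Total RNA of 8 tumours was sequenced. Per the labels' protocols, it was purified with TRIzol and columns, required a RIN above 7.5 and was made into stranded libraries. The authors used STAR 2.5.3a, DESeq2 1.18.1 and the GRCm38 build, per the submitters' processing notes; the sources used here do not state the counting tool, annotation or filter. The authors deposited log2 values with a variance-stabilising transformation, as the name of the table says, and 0 reads stands at a common lowest value of 5.12. Undoing the transformation gave whole reads (within 0.01) for 100% of values, and shares and levels were computed from these reads. RPM are reads per 1000000 reads in tested genes. The table has 19431 rows, of which 32 name no gene and hold 0.101% to 0.167% of reads. Of rows sharing a symbol (86 symbols), that of highest mean entered.

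MEKi minus control was fitted on the deposited values with limma 3.58.1 in R 4.3.3 (lmFit, eBayes with trend, no covariate). Tests were two-sided, p-values were adjusted by Benjamini-Hochberg over all 19129 genes, and calls used 0.05. The fit was tested on simulated data. Errors are SD over 4 libraries, each from 1 mouse per the design, so p-values measure spread between mice. Sums over members got no test. The members and lists were chosen with earlier results of these data known. Genes were named by rule: every constant gene, Jchain and Mzb1, the V genes with the most reads or the largest share in a library, the 5 smallest p among members, and the 2 smallest p in each list. Igkv10-94, Igkv4-53, Igkv4-59, Irf4, Sdc1 and Pigr were named after their values were seen. V gene coordinates and coding sequences came from GENCODE M21 on GRCm38, matched by symbol for 77 of 77 V genes and aligned with Biopython 1.88. Figures used matplotlib 3.10.9. The labels give no batch or date.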

Additional observations from a re-analysis of the deposited data

Results flagged for a closer look

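Among 100 groups of 4 libraries examined (50 quantities under 2 labels), 6 held a library far from the other 3 by Dixon's criterion, which chance alone meets in about 1 in 20 groups. The lambda share of light chain constant reads was 26.2% in MEKi 1, where the next MEKi library had 4.83%. It was 14.7% in control 2, where the next control library had 3.27%. The Igha share of heavy constant reads was 29.7% in MEKi 3, where the next MEKi library had 8.16%. The log2 value of Iglc1 was 7.77 in control 2, and the next control library had 5.995. The log2 value of Pou2af1 was 7.99 in MEKi 3, next to 7.02 in the nearest MEKi library. In control 2 it was 7.32, next to 6.55 in the nearest control library.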

How the results depend on the processing

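The count of antibody genes called was 0 under each alternative run: quantile normalization, aligned medians, limma without a trend, limma voom on recovered reads, every deposited row, the 75% of genes with the highest mean, the replicate number as a block, and each library left out in turn. With the 75% of genes, 21 of the 90 members were tested. At an unadjusted p under 0.05 there were 14 members without MEKi 4 (15.6%, beside 1.66% of all genes) and 0 to 3 in the others. The count over all genes, 1 with all libraries, was 0 with the 75% of genes and 0 with the replicate block, and ranged from 0 to 2 with a library left out. Of 37 gene differences examined, 35 kept their sign in the alternatives that kept all libraries, the exceptions being Ighg1 (-0.27) and Ighg3 (-0.36) by voom. With a library left out, 28 kept their sign. The others ranged from -0.42 to 1.23 for Igha, -0.070 to 1.80 for Ighg1, -0.23 to 0.55 for Ighg3, -0.050 to 1.04 for Ighm, -0.11 to 1.59 for Igkc, -0.35 to 0.44 for Iglc1, -0.026 to 1.45 for Jchain, -0.031 to 0.46 for Mzb1 and -0.68 to 0.12 for Epcam. The cause was not tested. The difference in effective number, -7.53 for Ighv, ranged from -9.85 to -5.53 with a library left out, was -6.86 by the inverse Simpson number and was -2.92 for Igkv, which was added after seeing the data. The level difference without both MEKi 3 and MEKi 4 was 1.29, and the Ighm share difference per kilobase was -12.6 percentage points. Both were added after seeing the data.

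The replicate numbers gave no sign of pairing libraries. Deviations of same-numbered libraries from their group means correlated at -0.33, 0.20, -0.46 and 0.02. Each was below the largest correlation with another number (0.22, 0.38, 0.28 and 0.37). The comparison is with the largest of several values from few libraries, so it cannot exclude pairing. With the replicate number as a block, 0 members were called and 0 had an unadjusted p under 0.05.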

Other observations

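Genes that read or carry antibodies had lower means under the MEKi label in 10 of 12 cases, with a median log2 difference of -0.19, and 0 passed the test by limma, with 0 at an unadjusted p under 0.05. Over all genes 48.4% of means were lower. The macrophage genes, which mark cells that carry several of these Fc receptors, had 6 of 6 lower means with a median of -0.22, and their part in the count was not tested. Their summed level was 640 to 838 RPM in the MEKi libraries and 618 to 1071 RPM in the control libraries. Fcgr2b, the inhibitory IgG receptor gene, had 107, 120.4, 93.9 and 67.1 RPM in MEKi 1 to 4, against 172.3, 185, 87.0 and 92.1 RPM in control 1 to 4 (log2 difference -0.51, interval -1.13 to 0.10). Trim21, a cytosolic antibody receptor gene, differed by 0.26 (interval -0.04 to 0.56). Pigr, which carries polymeric IgA across epithelia, had 174.8, 119, 69.5 and 233 RPM in MEKi 1 to 4, against 100.4, 150.9, 172.8 and 107 RPM in control 1 to 4. MEKi 3, with the highest Igha level, had the lowest Pigr level.

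Of 18 measured genes for follicle and plasma cell niche signals, 8 had higher and 10 lower means, and 0 passed the test, with 0 at an unadjusted p under 0.05. Il6, a plasma cell survival cytokine gene, differed by -0.70 (interval -1.67 to 0.26) and Il21, a cytokine gene of follicular helper T cells, by 0.21 (interval -0.05 to 0.47). Germinal centre genes had 2 of 6 means higher, with Gcsam at 0.32 and Bcl6 at -0.16. Of the V(D)J recombination and pre-B list 3 of 7 genes were measured, with Dntt at -0.15 and Vpreb3 at 0.06. The 2 genes with the smallest p were Cd4 (0.72) and Trac (0.30) for T cells, Prss2 (-4.62) and Ctrb1 (-4.58) for acinar cells, Adgre1 (-0.42) and Mrc1 (-0.67) for macrophages, and Epcam (-0.44) and Cdh1 (0.09) for tumour epithelium. Without MEKi 4 the Epcam difference was 0.12. Limma called 0 genes in these lists, with 1, Prss2, at an unadjusted p under 0.05.

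Heavy V reads per heavy constant read were 0.248, 0.416, 0.139 and 0.138 in MEKi 1 to 4, against 0.220, 0.312, 0.184 and 0.185 in control 1 to 4. Kappa V reads per Igkc read were 0.99, 1.91, 0.56 and 0.98 in MEKi 1 to 4, against 1.02, 1.68, 2.31 and 0.97 in control 1 to 4. MEKi 3, with the most constant gene reads, was lowest in kappa, and V genes without a row are missing from the numerators.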
